A study of Macaca mulatta with 449 samples.

Results

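The precentral gyri, which carry the motor cortex, were compared with the postcentral gyri, which carry the somatosensory cortex, in the brains of 8 rhesus macaques. On each side of the central sulcus a superior and an inferior gyrus had been sampled. The counts of the superior and inferior precentral gyrus were summed within each animal and set against the sum of the superior and inferior postcentral gyrus of the same animal. This used 32 of the 408 samples in the count table, 16 a side, from 4 of its 51 sub-regions. The animals carried no treatment or altered gene according to the labels. Animals 2, 3 and 6 were 10 years old, animal 11 was 9.8, animal 10 was 5, animal 7 was 4, animal 8 was 3.8 and animal 4 was 3.2 years old. Animals 2, 3, 7 and 8 were male and animals 4, 6, 10 and 11 female, which gave 2 young and 2 mid-aged animals of each sex. Small tissue pieces were dissected by an anatomist from the named gyri, so a sample may hold neurons, glia and vessels of several layers and is not 1 cytoarchitectonic area or layer. RNA was sequenced after removal of ribosomal RNA, and the authors counted reads on genes.

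Primary motor cortex sends long axons to the brainstem and spinal cord from large pyramidal neurons of layer 5, and its layer 4, the main target of thalamic input elsewhere, is thin or hard to see. Primary somatosensory cortex receives touch and position signals from the thalamus into a dense layer 4 of small neurons. Cortical areas are built from the same broad classes of excitatory neuron, interneuron and glia, in proportions that differ between areas.

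Between 7816096 and 15173822 reads were counted on genes per sample (median 10167480), and 16355759 to 25513872 per sum of 2 gyri. The sex labels held in all samples, with *DDX3Y*, a gene of the Y chromosome, at 133 to 176 counts per 1000000 counted reads (CPM) in 16 male samples and at most 0.146 CPM in 16 female ones. All 7 markers of cortical excitatory neurons passed the count filter, with *SLC17A7*, the vesicular glutamate transporter of most cortical neurons, at 790.5 ± 109 CPM (SD, n = 8) in precentral and 712 ± 60.5 CPM in postcentral gyri. In the test described below 3 of the 7 were higher and 2 lower in precentral gyri, beside 13.3% and 11.8% of all genes tested. The summed level of the 7 markers was higher on the precentral side in 4 of 8 animals. *NRGN* had a mean of 1348 CPM in precentral and 1906 CPM in postcentral gyri, and *NEUROD6* 53.3 and 33.1 CPM. The blood genes *HBA1* and *ALAS2*, the thalamic factors *LHX9* and *GBX2* and the striatal receptor *GPR6* stayed below the filter. After the mean of each animal was removed, the second component of the 32 samples (23.9% of the variance over 15262 genes) ran from 5.18 to 21.7 in the precentral and from -18.8 to -8.92 in the postcentral samples, so no sample lay on the other side. The first component (32.8%) did not divide the gyri. Its most extreme scores were those of the inferior postcentral sample of animal 6 (-53.8) and the superior postcentral sample of animal 3 (39.6), and the number of genes called is therefore given with and without these animals.

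Many genes differed a little across the sulcus and a small group differed strongly. With the animal as a block, edgeR's quasi-likelihood test called 3833 of 15262 genes (25.1%) at a Benjamini-Hochberg adjusted p (FDR) under 0.05. Of these, 2032 (13.3%) were higher and 1801 (11.8%) lower in precentral gyri. The median absolute log2 fold change (log2FC, precentral against postcentral) of called genes was 0.326, and 3135 of them (81.8%) differed by less than 1.5-fold. A fold above 2 was reached by 197 called genes (1.29%), 107 higher and 90 lower in precentral gyri. The ranges of the 8 precentral and the 8 postcentral sums did not overlap for 202 genes (1.32%), each of them called. The direction was the same in all 8 animals for 2209 of the called genes, and for 15.7% of all genes tested. In whole tissue, fewer cells of a type and less RNA per cell cannot be told apart. Without animals 3 and 6 the test called 4129 genes, and without the animal as a block it called 777.

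Markers of glia and vessels also moved with the side, all called ones in 1 direction. Of 6 astrocyte markers tested 5 were higher in precentral gyri, and so were 4 of 4 markers of microglia, 4 of 4 of oligodendrocyte precursors and 6 of 6 of endothelial cells and pericytes. The median log2FC of these lists was 0.30, 0.40, 0.29 and 0.35, against -0.0092 over all genes tested. The precursor marker *OLIG2* (0.20 ± 0.065, FDR = 0.0347) lost its call in 6 of 8 fits with 1 animal left out. *GFAP*, the intermediate filament of astrocytes, had a lowest, median and highest level of 260.2, 396 and 651 CPM in precentral and 157, 245 and 351 CPM in postcentral gyri (log2FC 0.78 ± 0.056, standard error, FDR = 3.49e-07). The ranges overlapped, but the level was higher on the precentral side in 8 of 8 animals. The summed level of the astrocyte markers was 3302 to 4141 CPM in precentral and 2480 to 3252 CPM in postcentral gyri, and these ranges did not overlap. The summed microglia markers (70.6 to 108 against 49.5 to 86.1 CPM), precursor markers (177 to 251 against 160.0 to 209.7 CPM) and vessel markers (168 to 276 against 134 to 228 CPM) overlapped, and each sum was higher on the precentral side in 8 of 8 animals. Of 9 myelin genes 2 were called, both higher in precentral gyri, *MOBP* (0.35 ± 0.10, FDR = 0.0242) and *CNP* (0.20 ± 0.068, FDR = 0.0456), while *MBP* (0.19 ± 0.11, FDR = 0.221) was not, beside 13.3% higher and 11.8% lower of all genes tested. Without animals 3 and 6 neither *MOBP* nor *CNP* passed the test (FDR = 0.067 and 0.118). The part of these markers in the results that follow was not tested.

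Genes that were much higher in postcentral gyri included a receptor, a transporter and a secreted peptide. *MET* (ENSMMUG00000006779) encodes the receptor for hepatocyte growth factor. Its lowest, median and highest levels were 2.26, 5.06 and 8.71 CPM in precentral and 20.9, 56.3 and 85 CPM in postcentral gyri. No precentral sample reached any postcentral one, also when the 32 samples were taken singly, and the log2FC was -3.33 ± 0.11 (10-fold lower in precentral gyri, FDR = 2.21e-10). *SLC17A6* (ENSMMUG00000020368) encodes the vesicular glutamate transporter VGLUT2, the form that thalamic neurons use. It had 20.1, 28.1 and 48.1 CPM in precentral and 103, 124 and 154 CPM in postcentral gyri, again without overlap in the 32 samples (log2FC -2.08 ± 0.10, FDR = 6.17e-09). *OSTN* (ENSMMUG00000020068), which encodes the secreted peptide osteocrin, had 1.79, 2.75 and 6.04 CPM against 7.65, 11.8 and 19.9 CPM (log2FC -1.91 ± 0.19, FDR = 6.7e-06). For all 3 genes the highest precentral sum lay below the lowest postcentral sum.

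The other leading genes on the postcentral side had low levels, so their folds are less precise, and they include those with the largest log2FC, *ISLR* and *DMKN*. *ISLR*, a secreted protein with leucine-rich repeats, had a median of 0.347 CPM in precentral and 6.38 CPM in postcentral gyri (log2FC -3.78 ± 0.24, FDR = 1.35e-07). *DPP4*, a cell surface peptidase, had medians of 1.19 and 6.63 CPM (log2FC -2.10 ± 0.20, FDR = 5.31e-06). For both, the 32 samples did not overlap, as was true of the epidermal protein *DMKN* (-3.74 ± 0.29) and the lipid transporter *ABCA12* (-2.82 ± 0.36), whose precentral medians were 0.148 and 0.249 CPM. The precentral sums of *DMKN* (0 to 0.318 CPM) and *ABCA12* (0 to 0.444 CPM) were near the floor, so the lack of overlap says little. Both were below the count filter in the separate fits of the superior and inferior pairs and were not tested there. The keratin *KRT16* (log2FC -3.09 ± 0.28) separated the 16 sums but not the 32 samples. The sums overlapped for *GSG1L2* (-2.54 ± 0.32), the cytokine *IL15* (-2.28 ± 0.30), the transcription factor *DMRT2* (-2.26 ± 0.27) and the chemokine *PF4V1* (-2.17 ± 0.24). *KRT16* and *PF4V1* belong to families of closely similar genes, for which the counting could have split reads.

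The genes much higher in precentral gyri included a calcium channel and a transcription factor. *CACNA1H* (ENSMMUG00000014213) encodes the T-type calcium channel Cav3.2, which opens at low voltage. It had a lowest, median and highest level of 40.3, 73.7 and 103 CPM in precentral and 9.87, 19.8 and 26.9 CPM in postcentral gyri, without overlap in the 32 samples (log2FC 1.93 ± 0.076, 3.8-fold, FDR = 9.95e-10). *MLXIPL*, a transcription factor that responds to carbohydrate, had 8.51, 18 and 23.1 CPM against 1.29, 3.26 and 5.96 CPM (log2FC 2.27 ± 0.11, FDR = 4.97e-09). The lowest precentral sum thus lay above the highest postcentral sum for both genes.

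*F5* (ENSMMUG00000042510), which encodes coagulation factor V, had 8.17, 18 and 29.8 CPM in precentral and 1.26, 2.43 and 5.42 CPM in postcentral gyri (log2FC 2.70 ± 0.17, FDR = 8.47e-08). The sums did not overlap for it, nor for *CLEC10A*, a lectin of macrophages (2.83 ± 0.17), *GDF10*, a ligand of the TGF-beta family (2.54 ± 0.20), *DNAH2*, a dynein heavy chain of cilia (2.04 ± 0.10), and *FFAR4*, a receptor for long-chain fatty acids (1.94 ± 0.17). They overlapped for *CLIC6*, a chloride intracellular channel protein with the largest log2FC among the leading genes on this side (3.58 ± 0.20), for *THBS4*, a thrombospondin (2.35 ± 0.14), for *USH1C*, a scaffold protein (1.98 ± 0.17), and for *NPPA*, the precursor of atrial natriuretic peptide (2.04 ± 0.23). *CLIC6* ran from 1.75 to 22.2 CPM over the precentral sums and from 0.157 to 2.08 CPM over the postcentral ones. It was also listed as a marker of the choroid plexus. Of 6 markers of meninges and choroid plexus tested, 3 were higher in precentral gyri, *CLIC6*, *KL* (0.37 ± 0.12, FDR = 0.0418) and *DCN* (0.32 ± 0.052), and *SLC13A4* was not called (0.24 ± 0.21, FDR = 0.453), beside 13.3% higher of all genes tested. *KL* was not called by DESeq2 (adjusted p = 0.0652), by limma-trend (adjusted p = 0.0528) or in 5 of 8 fits with 1 animal left out. The summed level of this meninges and choroid plexus list was 40.2 to 83.2 CPM in precentral and 32.2 to 58.5 CPM in postcentral gyri. This sum contains *CLIC6* itself, so it is not independent of the *CLIC6* result. The part of meninges and choroid plexus in that result was not tested. In a RefSeq annotation of the macaque (T2T-MMU8v2.0) *CACNA1H* overlapped *TPSG1*, so reads of this pair may not have been kept apart.

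**Figure D1:**
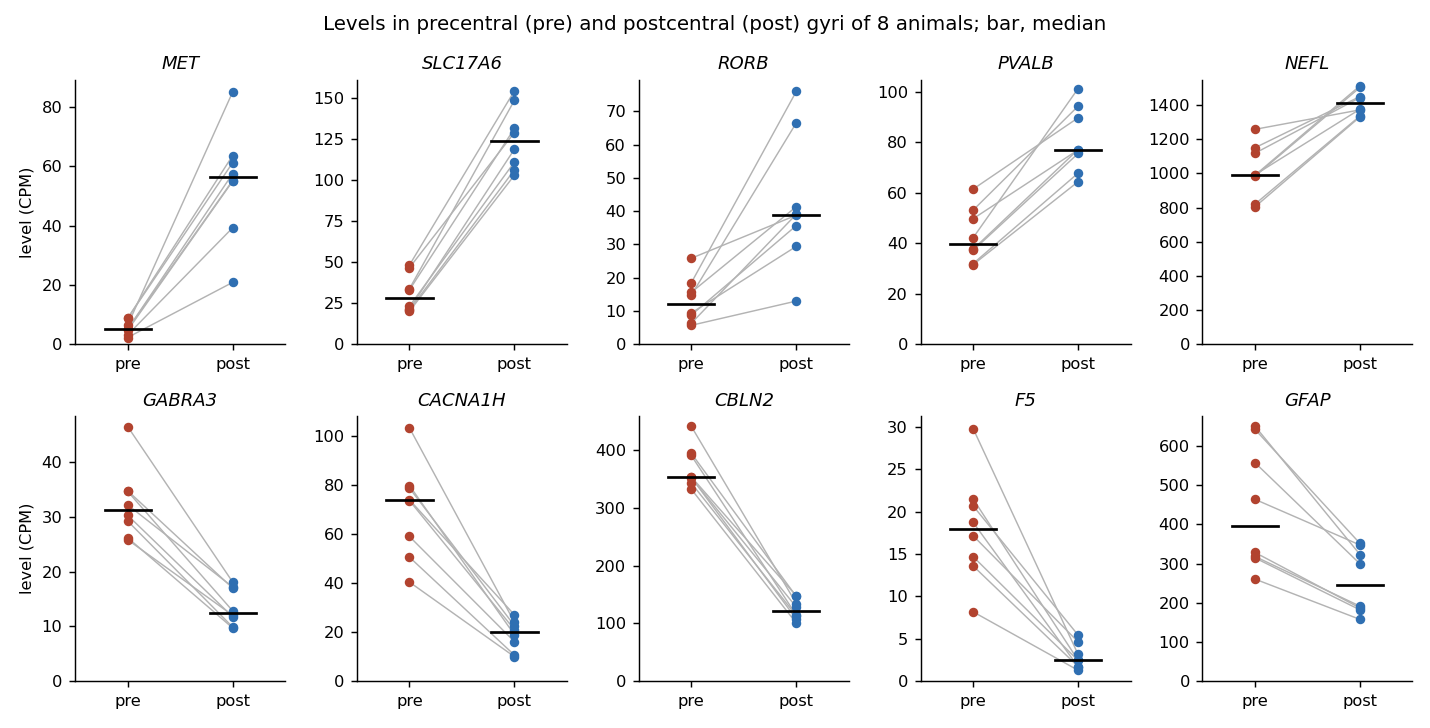
Level in CPM (y axis, from 0) of 10 genes in the precentral and postcentral sums of 8 animals; grey lines join the sums of an animal and black bars mark the median. The sides do not overlap for *MET*, *SLC17A6*, *PVALB*, *NEFL*, *GABRA3*, *CACNA1H*, *CBLN2* and *F5*, while they overlap for *RORB* and *GFAP*, with the same direction in all 8 animals.

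Genes that mark the layers of the cortex did not all move in 1 direction. *RORB*, a nuclear receptor that marks layer 4, had a lowest, median and highest level of 5.68, 12.1 and 25.8 CPM in precentral and 13, 38.9 and 76 CPM in postcentral gyri (log2FC -1.70 ± 0.17, FDR = 6.56e-06). The ranges overlapped, with the highest precentral sum in animal 6 and the lowest postcentral one in animal 4, and the level was lower on the precentral side in 8 of 8 animals. Of 7 layer 4 genes tested, 3 were lower and 1 higher in precentral gyri, with a median log2FC of -0.38 (of all genes tested 13.3% were higher and 11.8% lower). The other lower ones were *IL1RAPL2*, a synaptic receptor (-1.52 ± 0.15, without overlap of the sums), and *CUX1* (-0.45 ± 0.07). *CUX2*, a homeobox gene of the upper layers and layer 4, was higher (0.39 ± 0.11, FDR = 0.0181), a call that DESeq2 did not make (adjusted p = 0.0514).

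Of 10 upper layer genes tested 6 were higher and 2 lower in precentral gyri, beside 13.3% higher and 11.8% lower of all genes tested, with a median log2FC of 0.38. *CBLN2*, a secreted organizer of synapses, had 333, 354 and 442 CPM in precentral and 100.3, 121 and 148 CPM in postcentral gyri, and the 32 samples did not overlap (log2FC 1.59 ± 0.058, FDR = 5.69e-10). *RASGRF2*, an exchange factor for Ras, was next (0.75 ± 0.057, without overlap of the sums), followed by *WFS1* (0.57 ± 0.059) and *LMO3* (0.43 ± 0.046). *MEF2C* (-0.21 ± 0.043) and *CARTPT* (-0.97 ± 0.33) were lower.

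Genes of layer 5 projection neurons had calls in both directions, as all genes tested did (13.3% higher, 11.8% lower). Of 12 genes of layer 5 projection neurons 6 were lower and 3 higher, with a median log2FC of -0.21. *FEZF2*, a factor that specifies neurons projecting below the cortex, had a median of 6.11 CPM in precentral and 11.2 CPM in postcentral gyri (-0.88 ± 0.15, FDR = 0.000575). *CRYM*, a thyroid hormone binding protein (-0.96 ± 0.07), and the serotonin receptor *HTR2C* (-1.66 ± 0.16) were lower as well. *POU3F1* (1.11 ± 0.17, without overlap of the sums), *BCL11B* (0.72 ± 0.16) and *ADRA1A* (0.53 ± 0.10), which also mark neurons projecting below the cortex, were higher.

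Of 11 genes of layer 6 and the subplate 7 were lower, 4 were not called and none was higher in edgeR's test, with a median log2FC of -0.55 (of all genes tested 13.3% were higher and 11.8% lower). *NR4A2*, a nuclear receptor of deep neurons, had medians of 8.11 and 17 CPM (-1.15 ± 0.095, FDR = 1.26e-06). *SULF1*, an extracellular sulfatase (-1.13 ± 0.12), *FOXP2* (-0.97 ± 0.088) and *TBR1* (-0.55 ± 0.11), transcription factors of layer 6, and *TLE4* (-0.35 ± 0.059) were lower too. *TBR1* was lower in 7 of 8 animals and the other 4 genes in 8 of 8.

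All 4 neurofilament genes tested, which encode filaments that are abundant in large axons, were lower in precentral gyri, with a median log2FC of -0.54 (of all genes tested 13.3% were higher and 11.8% lower). *NEFL* had 804, 990.3 and 1258 CPM in precentral and 1331, 1410 and 1513 CPM in postcentral gyri, with no overlap (log2FC -0.49 ± 0.062, FDR = 5.96e-05). *NEFM* (-0.58 ± 0.087), *NEFH* (-0.65 ± 0.12) and *INA* (-0.40 ± 0.046) were also lower in 8 of 8 animals. The summed level was 1920 to 3287 CPM in precentral and 3214 to 3881 CPM in postcentral gyri, so the highest precentral sum passed the lowest postcentral one.

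Of 12 genes of channels that support fast firing 8 were lower and 1 higher in precentral gyri, with a median log2FC of -0.31 (of all genes tested 13.3% were higher and 11.8% lower). The lower ones included *KCNC1*, a Kv3 potassium channel (-0.52 ± 0.062) and *KCNAB3*, a potassium channel subunit (-0.33 ± 0.047), and the higher one was *KCNT2*, a sodium-activated potassium channel (0.74 ± 0.081). *PVALB*, the calcium-binding protein of fast-spiking interneurons, had 31.5, 39.9 and 61.4 CPM in precentral and 64.3, 77 and 101 CPM in postcentral gyri (-0.93 ± 0.071, FDR = 6.95e-07), and the sums did not overlap. Over all 21 interneuron genes tested, 6 were higher and 6 lower, with a median log2FC of -0.042, and both counts stand beside the same shares of all genes. Among the lower ones were the serotonin receptor subunit *HTR3A* (-1.80 ± 0.19) and the peptide gene *CRH* (-0.47 ± 0.066), and among the higher ones *RELN* (0.72 ± 0.056) and *NPY* (0.54 ± 0.10). *GAD1* (-0.092 ± 0.038, FDR = 0.0904) and *GAD2* (0.062 ± 0.044, FDR = 0.339), which make GABA in interneurons of all kinds, were not called.

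Of 10 genes known for high levels in primary sensory areas of primates, 9 were lower in precentral gyri, 1 was not called and none was higher in edgeR's test, with a median log2FC of -0.62 (of all genes tested 13.3% were higher and 11.8% lower). *FSTL1*, a secreted glycoprotein, had 43.8, 58.4 and 70.9 CPM in precentral and 89.5, 107 and 118 CPM in postcentral gyri, without overlap in the 32 samples (-0.88 ± 0.064, FDR = 4.52e-07). *VAV3* (-0.92 ± 0.071) and *HTR2A* (-0.39 ± 0.077) were lower too, and *HTR1B* (0.12 ± 0.16, FDR = 0.612) was the member not called. The list also holds *OSTN*, *PVALB* and *KCNAB3*. Of 3 association area genes, *RBP4*, a retinol carrier (1.42 ± 0.15), and *PNMA5* (1.10 ± 0.10) were higher in precentral gyri and *SLIT1* (0.038 ± 0.10, FDR = 0.813) was not called. *RBP4* neighbours *FFAR4* in the RefSeq annotation.

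Among 15 genes that pattern cortical areas in development, 8 were higher and 3 lower in precentral gyri, with a median log2FC of 0.18 (of all genes tested 13.3% were higher and 11.8% lower). The lower ones were *RORB*, *BHLHE22* (-0.82 ± 0.10) and *NR2F1* (-0.43 ± 0.052), a nuclear receptor that is high in caudal cortex in development. The higher ones included *LMO4* (0.41 ± 0.041), *NR2F2* (0.51 ± 0.10), *CDH6* (0.48 ± 0.075) and *LHX2* (0.18 ± 0.056). *PAX6*, which is high in rostral progenitors, had 84 ± 9.73 CPM (SD, n = 8) against 73.3 ± 6.65 CPM (0.19 ± 0.05, FDR = 0.0112). *EPHA7* and *EFNA5* were not called (FDR = 0.276 and 0.151).

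Transmitter receptors differed gene by gene. Of 26 glutamate receptor genes 9 were higher and 2 lower in precentral gyri (median log2FC 0.18), beside 13.3% higher and 11.8% lower of all genes tested. The AMPA receptor subunit *GRIA1* (0.52 ± 0.043) and the NMDA receptor subunit *GRIN3A* (0.60 ± 0.056, without overlap of the sums) were higher. The metabotropic receptor *GRM4* was lower (-0.63 ± 0.081). The widely used subunits *GRIA2* (FDR = 0.0781), *GRIN1* (FDR = 0.244) and *GRIN2A* (FDR = 0.659) were not called.

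Of 15 GABA receptor genes 4 were higher and 3 lower (median 0.084), beside 13.3% and 11.8% of all genes tested. *GABRA3*, the alpha-3 subunit of the GABA-A receptor, had 25.8, 31.2 and 46.5 CPM in precentral and 9.69, 12.4 and 18.1 CPM in postcentral gyri, without overlap in the 32 samples (1.27 ± 0.076, FDR = 7.64e-08). *GABRA5* (0.41 ± 0.073) was higher and *GABRD* (-0.31 ± 0.051) and *GABBR2* (-0.15 ± 0.038) were lower.

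Among 27 receptors for monoamines and acetylcholine 8 were higher and 7 lower (median -0.042), beside 13.3% higher and 11.8% lower of all genes tested. Of the serotonin receptors *HTR1A* (1.42 ± 0.12) and *HTR1E* (1.04 ± 0.10) were higher, *HTR3A*, an ion channel, *HTR2C* and *HTR2A* were lower and *HTR1B* was not called. *HTR1E* had 8.68 to 11.6 CPM in precentral and 3.45 to 6.73 CPM in postcentral gyri, without overlap in the 32 samples. The nicotinic subunits *CHRNA4* (1.00 ± 0.14) and *CHRNB2* (0.28 ± 0.058), which combine into 1 receptor, were higher, and *CHRNA3* (-0.98 ± 0.16) and *CHRNA5* (-0.82 ± 0.16) were lower.

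Adhesion and guidance genes had calls in both directions, as all genes tested did. Of 23 cadherins and protocadherins 12 were higher and 3 lower in precentral gyri (median log2FC 0.22), led by *PCDH17* (0.96 ± 0.086), *CDH4* (0.73 ± 0.10), *CDH9* (0.55 ± 0.076) and *CDH11* (0.40 ± 0.05, without overlap of the sums). Of 48 axon guidance genes 13 were higher and 12 lower (median log2FC -0.0008), beside 13.3% higher and 11.8% lower of all genes tested. The higher ones included the semaphorin receptors *NRP1* (0.81 ± 0.079), *PLXNA1* (0.40 ± 0.041) and *PLXNA3* (0.51 ± 0.067) and the ephrin *EFNB3* (0.66 ± 0.082), which neighbours *DNAH2* in the RefSeq annotation. The lower ones included the ligands *SEMA3A* (-1.03 ± 0.23) and *SEMA3E* (-0.91 ± 0.23) and the netrin receptor *DCC* (-0.63 ± 0.17).

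In the perineuronal net, the matrix around fast-spiking interneurons, 3 of 6 genes were higher and 2 lower (of all genes tested 13.3% were higher and 11.8% lower). *TNC* (0.78 ± 0.10), *VCAN* (0.45 ± 0.067) and *BCAN* (0.27 ± 0.056), which glia also make, were higher, while *ACAN* (-0.50 ± 0.12) and *HAPLN4* (-0.27 ± 0.078) were lower. Of 10 immediate early genes, which neurons switch on with activity, 5 were lower and 1 higher in precentral gyri (median -0.32), beside the same shares of all genes. *FOS* had 14, 22.2 and 52 CPM in precentral and 20.5, 32.6 and 91.1 CPM in postcentral gyri, overlapping widely, and was lower on the precentral side in 7 of 8 animals (-0.63 ± 0.11, FDR = 0.000909). *NR4A1* (-0.58 ± 0.074) and *ARC* (-0.50 ± 0.07) were lower in 8 of 8 animals, and *ATF3*, also a gene of cell stress, was higher (0.71 ± 0.14, FDR = 0.00216).

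Among genes of neighbouring structures, the 4 striatal markers tested gave 1 lower call, *DRD2* at mean levels of 1.34 and 1.95 CPM (-0.51 ± 0.17, FDR = 0.0348), which DESeq2 did not make (adjusted p = 0.0977), beside 25.1% of all genes tested that were called. Of 3 thalamic markers *SLC17A6* and *TCF7L2* (-0.49 ± 0.10) were lower in precentral gyri and *LEF1* (0.33 ± 0.076) was higher. *SLC17A6* is not a marker of thalamic tissue alone here. Over 31 cortical sub-regions its mean ran from 9.93 CPM (anterior cingulate gyrus) to 188 CPM (posterior superior occipital gyrus). The part of thalamic tissue in these calls was not tested. *LHX9* had mean levels of 0.151 CPM in precentral and 0.659 CPM in postcentral gyri, below the filter.

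**Figure D2:**
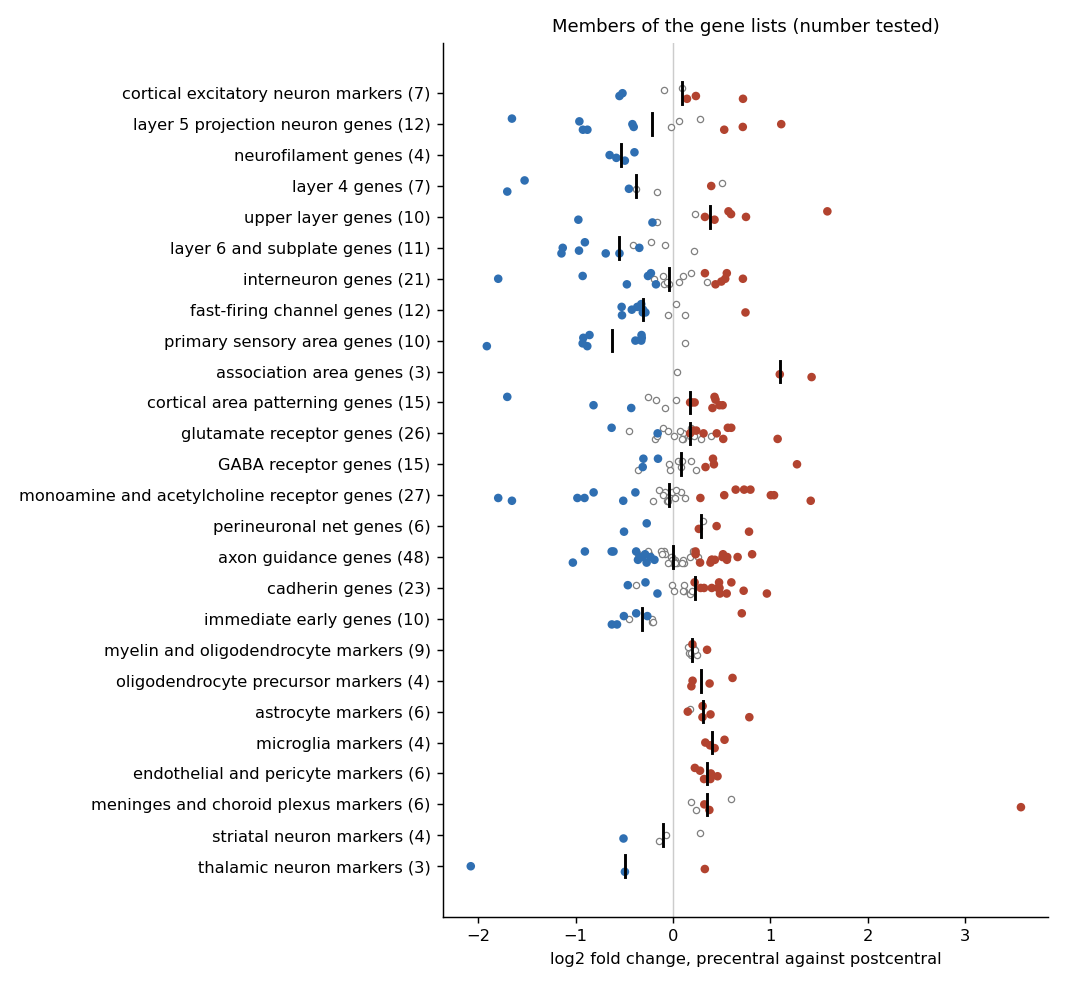
Log2 fold change of precentral against postcentral gyri (x axis) for the members of 26 gene lists, with the number tested in brackets; filled points were called at an FDR under 0.05 (red higher, blue lower in precentral gyri), open points were not, and black bars mark the median. Called astrocyte, microglia, precursor and vessel markers lie above 0, and neurofilament genes and the called members of the primary sensory list below it.

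The superior and the inferior pair of gyri share no sample, so the comparison was also made in each pair, in the same 8 animals. It called 2419 of 14262 genes (17%) in the superior pair, 1414 (9.91%) higher and 1005 (7.05%) lower in the precentral gyrus. In the inferior pair it called 1874 of 14243 genes (13.2%), 1034 (7.26%) higher and 840 (5.9%) lower. Both pairs called 1218 genes, 50.4% of the superior and 65% of the inferior calls, and each of these had the same direction in both pairs. Of the genes called in the superior pair 97.6% had the same sign in the inferior pair, and 98.8% of the inferior calls had the same sign in the superior pair, against 72% of all 14137 genes tested in both. Across these genes, which are not independent replicates and come from the same animals, the log2FC values of the pairs had a Pearson's r of 0.787.

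Several genes led both pairs. *CLIC6* (3.23 ± 0.24 superior, 3.86 ± 0.30 inferior) and *CLEC10A* (3.02 ± 0.23 and 2.57 ± 0.27) were among the 3 leading genes on the precentral side in each pair, joined by *F5* in the superior pair (3.02 ± 0.19) and *GDF10* in the inferior one (2.56 ± 0.30). On the other side *ISLR* (-4.20 ± 0.30 and -3.31 ± 0.35) and *MET* (-3.62 ± 0.12 and -3.11 ± 0.16) led both, followed by *KRT16* in the superior pair (-3.55 ± 0.39) and *GSG1L2* in the inferior one (-2.51 ± 0.45). *PVALB* had a log2FC of -0.72 ± 0.12 in the superior and -1.17 ± 0.094 in the inferior pair. In the test of the difference between the pairs 0 of 14791 genes passed with edgeR (485 had an unadjusted p under 0.05) and 6 with DESeq2. In simulated data edgeR's test of this difference recovered 23 of 50 genes changed 1.5-fold, so small differences between the pairs may have been missed. Without animals 2, 10 or 11 the inferior pair gave 1165, 1236 and 1207 calls.

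**Figure D3:**
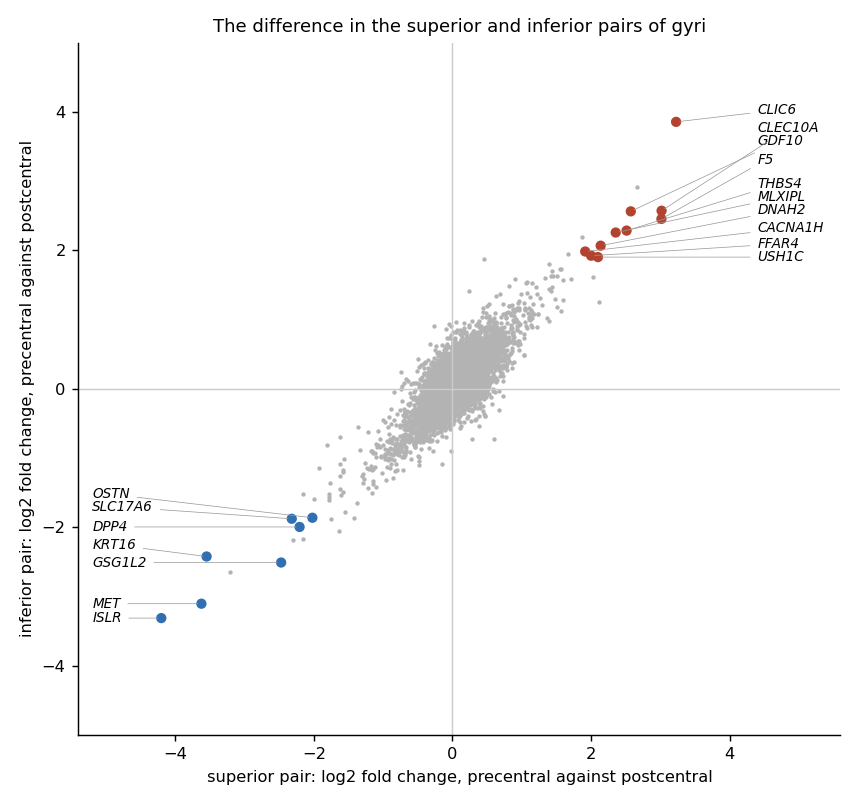
Log2 fold change of the precentral against the postcentral gyrus in the superior pair (x axis) and in the inferior pair (y axis) for 14137 genes (grey) and leading genes tested in both (red higher, blue lower in precentral gyri). The leading genes were chosen on the sums of these pairs, so a shared sign follows from the choice; *ISLR* and *MET* lie at the lower left and *CLIC6* at the upper right.

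To see whether the difference across the sulcus is that of the lobes at large, the 8 other frontal sub-regions were summed in each animal and set against the 7 other parietal ones. The frontal sum held the remaining frontal gyri with the orbital and ventromedial cortex and the insula. The parietal sum held the remaining parietal gyri and the intraparietal sulcus, and also the annectant gyri and the cuneus. The part of single members in the result was not tested. The contrast of these lobe sums called 7814 of 17349 genes (45%). Its 3 leading genes on the frontal side were the pituitary hormone genes *GHV* (3.65 ± 1.06, FDR = 0.0163) and *FSHB* (3.00 ± 0.13, FDR = 6.05e-09) and *CD36* (3.46 ± 0.18, FDR = 2.49e-08). The part of pituitary genes in the comparison with the lobes was not tested. Of the 2032 genes higher in precentral gyri, 1311 (64.5%) were also higher in the other frontal sub-regions and 105 (5.17%) were lower. Of the 1801 genes lower in precentral gyri, 1284 (71.3%) were lower and 67 (3.72%) higher there. Over all 15262 genes tested at the sulcus, 40% were called with the same sign between the lobes and 7.65% with the opposite sign. The lobe sums hold more reads, 68105607 to 129451843 per animal.

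Some of the leading genes differed more across the sulcus than between the lobes. The test of the difference between these contrasts called 1796 of 17038 genes (10.5%), among them 10 of the 12 leading genes on the precentral and 7 of the 12 on the postcentral side. This test contains the difference across the sulcus itself and is therefore not independent of how these genes were chosen. *F5* had 4.61 ± 1.47 CPM (SD, n = 8) in the other frontal and 4.1 ± 0.816 CPM in the other parietal sub-regions, a log2FC of 0.12 ± 0.15 (FDR = 0.52) beside 2.70 at the sulcus. The difference between these values was 2.54 ± 0.24 (FDR = 2.16e-08), followed on the precentral side by the lipid receptor *LPAR3* (2.02 ± 0.23) and *CLEC10A* (1.72 ± 0.24). For *LPAR3* the log2FC at the sulcus itself was 0.89 ± 0.17, smaller than this difference. Both *F5* and *CLEC10A* varied among the other frontal sub-regions. In the posterior superior frontal gyrus the mean was 11.9 CPM for *F5* and 5.53 CPM for *CLEC10A*. In the superior and inferior precentral gyrus it was 19.1 and 17.3 CPM for *F5* and 5.75 and 4.43 CPM for *CLEC10A*. The anterior arcuate sulcus gyrus had 9.72 CPM of *F5* and 1.72 CPM of *CLEC10A*, and the insula 0.959 and 0.879 CPM. Towards the postcentral side *GSG1L2* was higher in the other frontal than in the other parietal sub-regions (0.95 ± 0.16), opposite to its direction at the sulcus, with a difference of -3.53 ± 0.38. *KRT16* had 8.36 ± 5.29 and 7.45 ± 4.25 CPM in the lobes (log2FC 0.15 ± 0.13, FDR = 0.36) and a difference of -3.31 ± 0.40. Its mean was 2.42 CPM in the posterior superior frontal and 13.9 CPM in the medial orbital gyrus. The superior and inferior precentral gyrus had 0.75 and 0.872 CPM. The fatty acid transporter *CD36* had a difference of -2.61 ± 0.55 and was itself higher in the other frontal than in the other parietal sub-regions (3.46 ± 0.18). It was not tested in the summed gyri, where it was below the count filter. Its difference therefore rests on the lobe sums and says nothing of the sulcus.

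Other genes differed between the lobes as well. *MET* had 16.5 ± 7.77 CPM in the other frontal and 79 ± 23.3 CPM in the other parietal sub-regions (-2.34 ± 0.15) and *SLC17A6* 38.2 ± 5.75 and 102 ± 21.6 CPM (-1.41 ± 0.059). For both genes the step at the sulcus was larger still, by -0.99 ± 0.26 and -0.66 ± 0.13 on the log2 scale (FDR = 0.0118 and 0.000722). For *GABRA3* (1.11 ± 0.054 between the lobes) and *FOXP2* (-0.95 ± 0.083) the difference did not pass the test (0.16 ± 0.10, FDR = 0.367, and -0.013 ± 0.13, FDR = 0.972). The direction was opposite between the lobes for *CRYM* (0.89 ± 0.08), *HTR3A* (0.63 ± 0.11) and *BHLHE22* (0.44 ± 0.077), which were lower in precentral gyri but higher in the other frontal sub-regions (FDR of the difference = 5.9e-11, 3.72e-08 and 1.1e-07). The myelin gene *MOBP* was likewise opposite, with -0.92 ± 0.062 between the lobes (FDR of the difference = 1.37e-07).

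**Figure D4:**
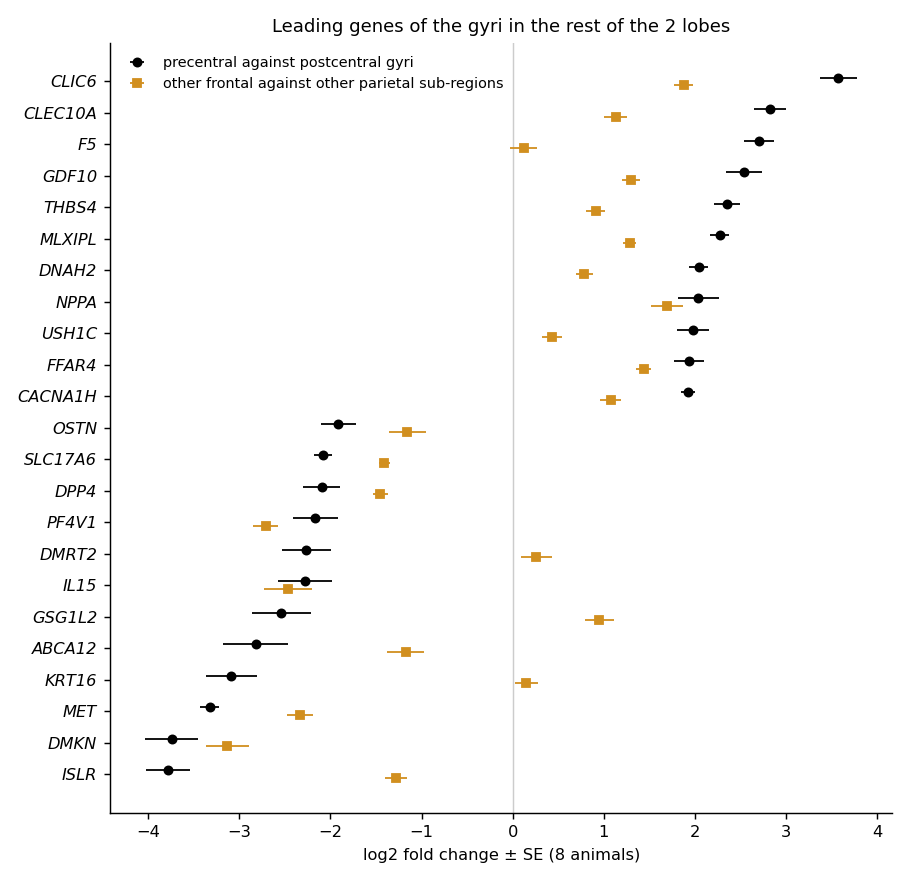
Log2 fold change ± standard error over 8 animals (x axis) of 23 leading genes between precentral and postcentral gyri (black circles) and between the other frontal and the other parietal sub-regions (orange squares). *F5*, *KRT16* and *DMRT2* lie near 0 between the lobes and *GSG1L2* on the other side of 0, while *MET* and *DMKN* differ in the same direction in both.

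The 4 gyri were then placed among 31 cortical sub-regions by mean CPM over the 8 animals, as a description without a test. The entorhinal and perirhinal cortex was not ranked with them. The precentral gyri were the 2 highest of 31 for *F5*, *THBS4*, *USH1C*, *RASGRF2*, *POU3F1* and the myelin genes *MOBP* and *CNP*. They were the 2 lowest for *KRT16*, *FEZF2*, *NR4A2*, *CRH*, *FOS*, *NR4A1* and the GABA-B receptor subunit *GABBR2*. *RORB*, *IL1RAPL2* and *SULF1* ranked 29 in the superior and 31 in the inferior precentral gyrus. *MET* ranked 30 and 28 there and had its highest mean, 161 CPM, in the hippocampal or parahippocampal gyrus.

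The postcentral gyri were the 2 highest of 31 for the neurofilament genes *NEFL*, *NEFM* and *NEFH*, and for *KCNC1*, *ACAN*, *NRGN* and *DMRT2*. *SLC17A6* ranked 8 and 7 in the superior and inferior postcentral gyrus and *PVALB* 7 and 5, and both were highest in the posterior superior occipital gyrus. *RORB* ranked 7 and 13, with its highest mean in the anterior superior occipital gyrus. *DNAH2*, which was higher in precentral gyri, ranked 20 and 10 there and 31 and 30 in the postcentral gyri, so that it was lowest of 31 on the postcentral side without being near the top on the precentral one. *CACNA1H* was highest in the anterior cingulate gyrus, with precentral ranks of 7 and 5.

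**Figure D5:**
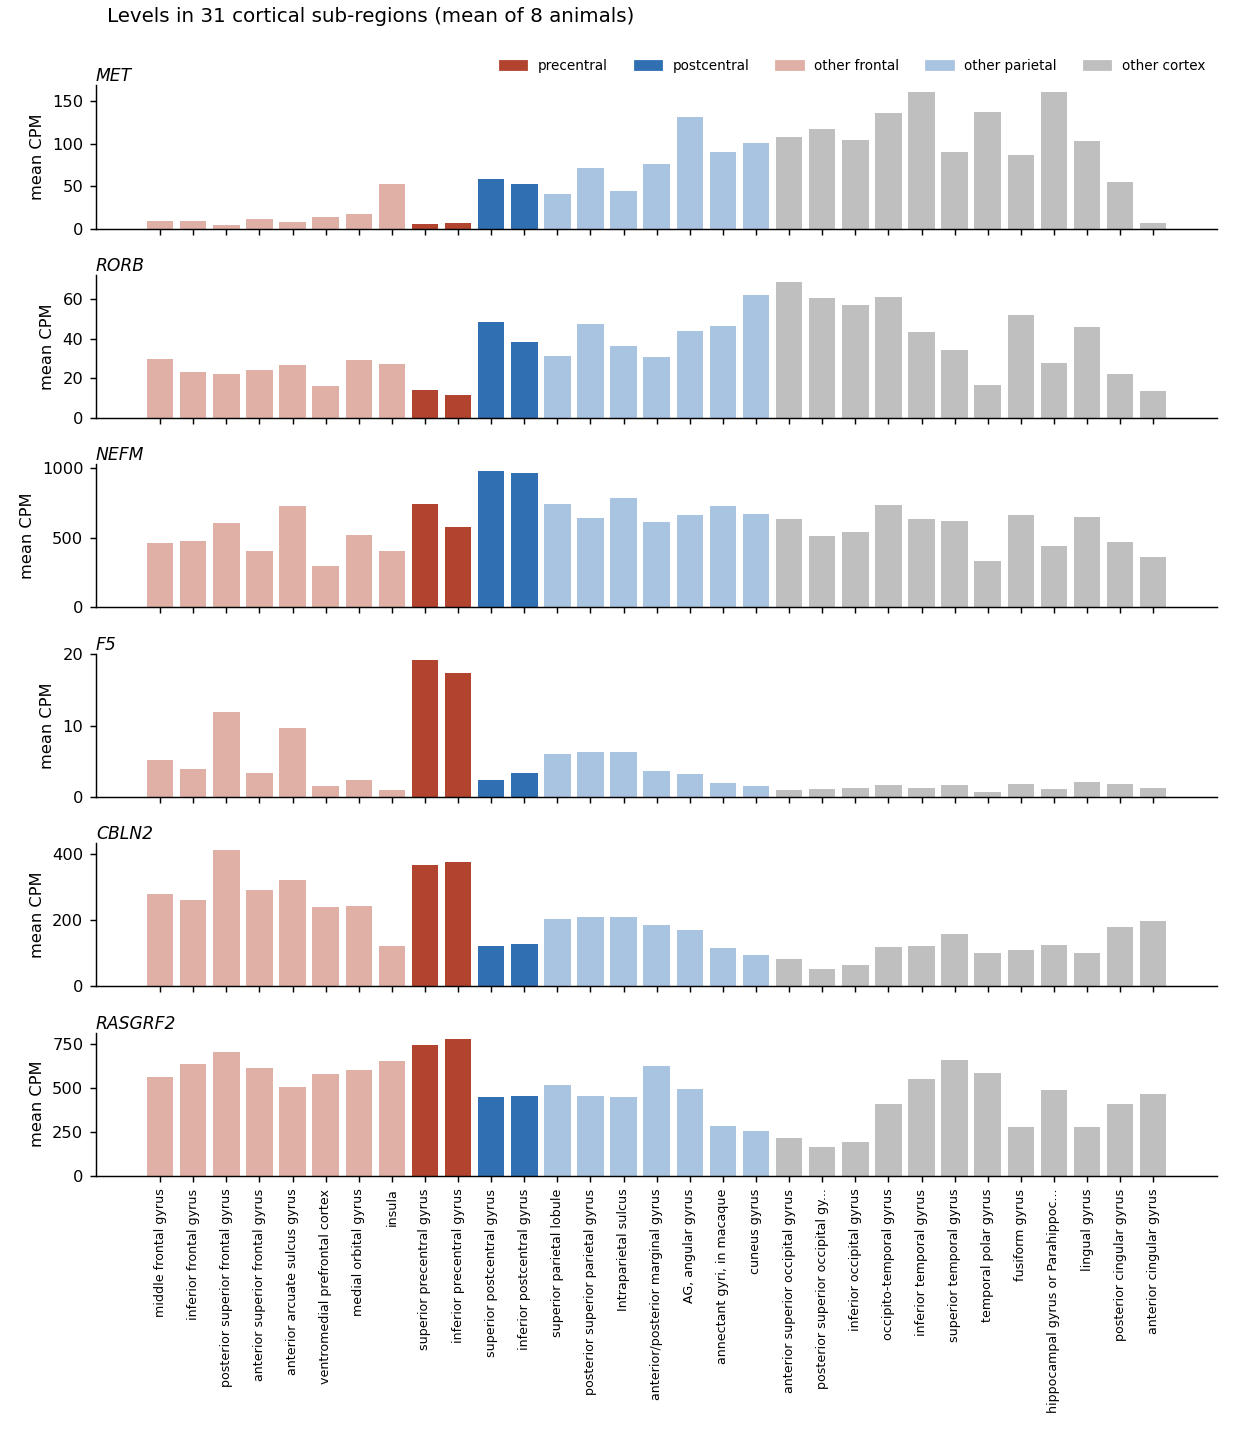
Mean level over 8 animals in CPM (y axis, from 0) of 6 genes in 31 cortical sub-regions, with the precentral gyri in red, the postcentral gyri in blue, the other frontal and parietal sub-regions in pale red and pale blue and the rest in grey. *RORB* is among the lowest in the precentral gyri, *NEFM* is highest in the postcentral gyri, and *F5* and *RASGRF2* are highest in the precentral gyri.

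Whether gyri lay further apart across the sulcus or along it was tested within animals. The distance, 1 minus Pearson's r of log2(CPM + 1), was 0.0161 ± 0.00604 (SD, n = 8) across the sulcus (superior with superior, inferior with inferior) and 0.0135 ± 0.00844 along a gyrus. It was larger across the sulcus in 6 of 8 animals, and the mean of across minus along was 0.00253 ± 0.00407 (SD, n = 8). An exact permutation of signs did not separate this mean from 0 (two-sided p = 0.109, where 0.00781 is the smallest p possible). Animals 3 and 6 were the exceptions, with a larger distance along a gyrus. In animal 3 it was 0.0186 across and 0.0237 along, and in animal 6 it was 0.0286 across and 0.0288 along. In animal 6 the superior pair lay 0.0124 and the inferior pair 0.0448 apart across the sulcus, and the precentral gyri 0.00791 and the postcentral gyri 0.0496 apart along it. The mean of across minus along was 0.001127 without a count filter (p = 0.109 by the same exact permutation). Without animal 3, itself an exception, it was 0.003626 (p = 0.0312 by this permutation).

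Age stage and sex were tested as terms on the precentral to postcentral difference, with 4 animals against 4. For age 0 of 15859 genes passed with edgeR, while 1037 had an unadjusted p under 0.05, DESeq2 called 2 and edgeR without a count filter 3. In simulated data edgeR's test of age recovered 23 of 50 genes changed 1.5-fold, so small differences by age may have been missed. For sex 1 gene of 15859 passed (0.00631%), with 1124 at an unadjusted p under 0.05, while DESeq2 called 2, edgeR without a count filter 324 and edgeR without animal 10 called 2. The gene that passed, ENSMMUG00000028668, has no symbol in the table used. In females it had 3.52 to 26.5 CPM in precentral and 0 to 0.0547 CPM in postcentral sums, and in males 0.0404 to 0.117 and 0.184 to 5.19 CPM. The median log2 ratio of CPM + 1 of *MET* was -3.24 in young and -3.02 in mid-aged animals, and -2.98 in females and -3.28 in males.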

How the data were processed

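The count table holds 51 sub-regions of 8 animals, sequenced after ribosomal RNA depletion. A further labelled sub-region, the midbrain, is not analysed here. The submitters' processing notes name Trim Galore 0.4.4, HISAT2 2.0.5 and HTSeq 0.6.1, and the deposited values are raw counts of reads per gene as the authors made them, without normalization. The strand option of the counting is not given in the sources used here, so reads of overlapping genes may not be separated.

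The table held 30807 genes, of which 17572 received a symbol. Counts of the superior and inferior gyrus were summed within each animal. Genes were filtered with filterByExpr, scaled by TMM and tested with edgeR 4.0.16 (glmQLFit, glmQLFTest; limma 3.58.1, R 4.3.3) with the animal as a block, since the labels tie the samples to the same 8 animals. P-values were adjusted over all genes tested (Benjamini-Hochberg, threshold 0.05). CPM is counts per 1000000 counted reads, and log2 ratios per animal used a pseudocount of 1. Distances were tested by exact sign flips (Python 3.11.15, numpy 2.4.6, pandas 2.3.3, scipy 1.17.1, matplotlib 3.10.9). Alternatives were DESeq2 1.42.0 with its Wald test, other filters and scaling, no replicate block, limma-trend on mean log values, and each animal left out. A fit without animals 3 and 6 was added after seeing the data.

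The comparison and the 28 gene lists (357 genes) were chosen with earlier results of these data known. Named genes were the 12 in each direction with the largest log2FC among called genes with a symbol, a mean of 1 CPM or more on the higher side and 1 direction in all 8 animals, up to 4 called genes a list by lowest p, and the 3 leading genes in each direction of the other comparisons. Further list members are named to show those not called or called in another direction, and these were chosen after their values were seen. List genes without a row of their symbol are not analysed here, and some members counted in the lists are not reported by name.

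In data simulated from the sums (15262 genes) the main test recovered 44 of 50 genes changed 1.5-fold, 46 of 50 changed 2-fold and 50 of 50 changed 4-fold, with 14 other calls. Fewer genes were changed in this simulation than were called in the data. The test of the difference between the pairs recovered 23 of 50 at 1.5-fold and 40 of 50 at 2-fold. The test of age recovered 23 of 50 and 38 of 50. Smaller differences of these kinds may therefore have been missed. The test of sex was not simulated. No 2 libraries held identical values.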

Additional observations from a re-analysis of the deposited data

Results flagged for a closer look

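Each of the 24 leading genes was checked for an animal far from the other 7 on each side, in 48 groups of 8 sums (Dixon's gap test, for which chance gives about 1 in 20 groups), and 5 groups had such an animal. In postcentral gyri *THBS4* was at 2.141 CPM in animal 6, against 0.582 to 1.316 CPM in the other animals. *USH1C* was at 8.646 CPM in the postcentral gyri of animal 4, against 1.333 to 3.816 CPM. *GSG1L2* was at 6.608 CPM in the postcentral gyri of animal 10, against 0.164 to 2.804 CPM. In precentral gyri *ISLR* was at 1.205 CPM in animal 2, against 0.162 to 0.577 CPM, and *DMRT2* at 0.6824 CPM in animal 6, against 0 to 0.323 CPM.

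The difference between precentral and postcentral gyri departed from that between the other frontal and the other parietal sub-regions in 1796 genes, in the test of the difference itself, and the 3 leading genes in each direction are given here. On the log2 scale this departure was 2.545 for *F5*, 2.021 for *LPAR3* and 1.716 for *CLEC10A* towards the precentral side. In the posterior superior frontal gyrus, part of the other frontal sum, *F5* and *CLEC10A* had means of 11.9 and 5.53 CPM. Towards the postcentral side the departure was -3.532 for *GSG1L2*, -3.31 for *KRT16* and -2.611 for *CD36*. The last gene was higher in the other frontal than in the other parietal sub-regions (log2FC 3.46 ± 0.18) and below the count filter in the summed gyri. The value of *CD36* therefore rests on the lobe sums and says nothing of the sulcus.

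With the count filter used, 1 gene, ENSMMUG00000028668, passed the test of the difference between females and males with edgeR (324 passed without the filter and 2 without animal 10). It was higher in precentral than in postcentral gyri in 4 of 4 females and in 0 of 4 males.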

How the results depend on the processing

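The number of genes called across the sulcus (3833) was 3419 with DESeq2, 4192 with limma-trend, 4129 without animals 3 and 6, and 2855 to 4172 when 1 animal was left out. Without the replicate block the test called 777 genes, each of which was among the 3833, and it called 538 in the superior pair, 461 in the inferior pair, 2201 between the lobes and 194 for the difference between gyri and lobes. For the difference between the pairs, age and sex the numbers without the replicate block were 0, 0 and 1, as with it. A fold above 2 left 197 genes. Leaving out 1 animal gave 1904 to 2238 calls in the superior pair, 1165 to 2378 in the inferior pair (1165 without animal 2, 1236 without animal 10 and 1207 without animal 11), 6599 to 7824 between the lobes and 1229 to 1968 for their difference from the gyri. For the difference between the pairs DESeq2 called 6 genes, against 0 with edgeR and 0 to 0 with 1 animal left out. For age DESeq2 called 2 and edgeR without a count filter 3, against 0 and 0 to 0. For sex DESeq2 called 2 and edgeR without a count filter 324, against 1, and 1 to 2 with 1 animal left out (2 without animal 10). The distance across minus along was 0.003626 without animal 3 (exact sign-flip permutation p = 0.0312), 0.004256 without animals 3 and 6 (the animals with a value below 0, so no test is given), 0.001127 without a count filter (p = 0.109), 0.003627 with a pseudocount of 0.1 (p = 0.0625) and 0.001943 to 0.003626 with 1 animal left out. The cause of these shifts was not tested.

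The check by gene covered 111 named genes, the leading genes across the sulcus and those taken from the lists by lowest p. Genes named only from other comparisons, such as *LPAR3* and *CD36*, and further list members were not among them. Of these 111 genes none changed direction in the settings tried, and 105 were called in every fit with 1 animal left out that tested them. The others were *CNP* and *OLIG2*, each lost in 6 of 8 such fits, *KL* and *DRD2*, each in 5, *CUX2* in 2 and *MOBP* in 1. *IL15* and *DMRT2* were below the count filter, and so not tested, in 2 and 1 of these fits. Without the replicate block 78 stayed under the threshold and 33 did not. *CUX2*, *KL* and *DRD2* were lost with DESeq2, and *KL* also with limma-trend. Whether depth limits the calls of genes near 1 CPM, where a sum of 2 gyri holds few reads, was not tested.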

Other observations

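The families below were chosen after their values were seen and are given as a description, beside 13.3% higher and 11.8% lower of all genes tested. Of 24 genes of neuropeptides and their secretory granules 14 were lower and 2 higher in precentral gyri, with a median log2FC of -0.24 against -0.0092 over all genes tested. *PDYN*, the precursor of dynorphins (-1.56 ± 0.066), *UTS2B*, the precursor of urotensin-related peptide (-1.91 ± 0.15), which neighbours *OSTN* in the RefSeq annotation, *NMU* (-1.37 ± 0.26), *CHGA*, the granule protein chromogranin A (-0.84 ± 0.044), and *VGF* (-0.49 ± 0.056) were lower. *NPY* and *NPPA* were the higher ones. Of 9 protein kinase C genes 5 were higher and 1 lower, with *PRKCD* (1.77 ± 0.11) among the higher ones and *PRKCE* lower (-0.14 ± 0.047). Of 17 RGS genes, which end signalling by G proteins, 8 were higher in precentral gyri, led by *RGS14* (1.11 ± 0.085), and none was lower in edgeR's test.

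Potassium channel genes had calls in both directions, 14 higher and 11 lower of 60. The Kv3 channels *KCNC1*, *KCNC2* (-0.28 ± 0.047) and *KCNC4* (-0.39 ± 0.064) were lower, and the small-conductance calcium-activated channels *KCNN1* (0.47 ± 0.071), *KCNN2* (0.73 ± 0.064) and *KCNN3* (0.65 ± 0.11) were higher in precentral gyri. Of 22 calcium channel genes 5 were higher, among them *CACNG6* (1.16 ± 0.09), and 5 lower, among them *CACNA2D2* (-0.38 ± 0.051). Of 37 collagen genes 15 were higher, led by *COL23A1* (1.40 ± 0.22), and 3 lower, led by *COL13A1* (-1.04 ± 0.11).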
